A study of Homo sapiens with 5 samples.

Results

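The 7 subunits of respiratory complex I that are encoded in the mitochondrial genome (ND1, ND2, ND3, ND4, ND4L, ND5 and ND6) were followed across a ribosome profiling study of HCT116 cells, a human colorectal carcinoma line. The 7 rows were matched by gene symbol among 17297 genes in the count table, and all 7 were among the 11991 genes with enough counts to be tested. Ribosome profiling sequences the short mRNA fragments that a ribosome shields from nuclease, so each count is a protected fragment assigned to a gene. The tested cells (MUT, 3 libraries) carry the eIF6-N106S genotype, described in the labels as homozygous mutant clones made by CRISPR/Cas9. The control cells (WT, 2 libraries) are HCT116 labelled Wt, and the labels name no drug or time course for either group. EIF6 encodes a factor that binds the large cytosolic ribosomal subunit and keeps it from joining the small one. Nothing in the labels tells whether replicate libraries stem from different cultures or different clones. The p-values thus reflect library-to-library spread alone, and that spread may be technical. For the gene tests it is estimated in part from the other genes.

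Complex I, the NADH:ubiquinone oxidoreductase, takes electrons from NADH, passes them to ubiquinone and pumps protons across the mitochondrial inner membrane. Its mitochondrially encoded subunits form the core of the membrane arm. ND2, ND4 and ND5 are the antiporter-like subunits, and ND1, ND3, ND4L and ND6 lie towards the quinone-binding end where the membrane arm meets the matrix arm. The remaining core and accessory subunits are nuclear-encoded, made in the cytosol and imported. The mitochondrial mRNAs are translated inside the organelle by mitochondrial ribosomes, which are smaller than cytosolic ones. Per the labels, the fragments were made with MNase and taken from the 80S monosome part of a sucrose gradient, the cytosolic size. Whether the fragments on these 7 mRNAs came from mitochondrial ribosomes was not tested.

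In the reference annotation (NCBI RefSeq, GRCh38.p14) the genes lie on the mitochondrial chromosome MT. ND1 (gene ID 4535) spans positions 3307 to 4262, and ND2 (4536) spans 4470 to 5511. ND3 (4537) spans 10059 to 10404 and is followed, after a gap of 65 bases, by ND4L (4539) at 10470 to 10766. ND4 (4538) spans 10760 to 12137 and shares its first 7 bases with the end of ND4L, with which it sits on a single mRNA. ND5 (4540) spans 12337 to 14148. ND6 (4541) spans 14149 to 14673, directly beside ND5 on the opposite strand, and is the only protein-coding gene of the mitochondrial genome read from that strand. All are protein-coding genes without introns. The sources used here do not give the strand setting or the treatment of fragments that match several places. Counts of ND6 cannot be told apart from antisense fragments of that region, and the split of fragments between each gene and its nuclear-genome copies is uncertain.

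The libraries held 3076137, 3755991 and 3821176 counts in MUT and 2095217 and 3128144 in WT, and each member had at least 124 counts in every library. Of the genes tested, MUT was higher for 10.0% and lower for 12.9% at an edgeR adjusted p under 0.05, and the median log2 fold change over all of them was 0.00. EIF6 itself had 157 ± 10.7 CPM (counts scaled to a common library size, with TMM factors, the trimmed mean of M values) in MUT and 178 ± 9.16 in WT (SD, n = 3 and 2), a log2 fold change of -0.17 (adjusted p 0.215). A coding change in EIF6 is not read by a gene-level count, so this level checks neither label. The 9 colorectal epithelial markers with a row summed to 1294, 1463 and 1154 CPM in MUT and 1201 and 1111 CPM in WT. Of the 8 tested, KRT8 and KRT19 rose, EPCAM, CDH1 and CLDN7 fell and 3 did not pass, while VIL1 had 1 count in all libraries together. The 6 fibroblast markers summed to 6.57 to 9.19 CPM in MUT and 7.5 to 8.96 CPM in WT. The 4 immune markers with a row summed to 5.39 to 8.19 CPM in MUT and 1.96 to 4.48 CPM in WT, most of it CD68, a lysosomal membrane protein. The part of these markers in the results below was not tested.

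Fragments on the 7 members together made up less of the MUT libraries. They were 0.226%, 0.223% and 0.221% of all counts in MUT and 0.308% and 0.270% in WT. Every MUT library lay below both WT libraries. The group means were 0.223% ± 0.00277 in MUT and 0.289% ± 0.0272 in WT (SD, n = 3 and 2), and the difference was -0.0654 percentage points. WT replicate 1 was the highest library, and without it the difference was -0.0462 points. The 6 other mitochondrial protein genes moved alongside: they held 0.445%, 0.425% and 0.442% in MUT and 0.662% and 0.520% in WT. In bulk libraries such as these, fewer cells with the mRNA, less mRNA per cell and fewer ribosomes per mRNA cannot be told apart. RNA-seq was not analysed here. Shares and CPM are also relative to the counts of all other genes, so more fragments on those genes would lower them too. Whether that happened was not tested. Whether the collected part of the gradient held unequal amounts of mitochondrial ribosomes in the 5 libraries was not tested either.

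By gene, 4 of the 7 members fell in MUT (ND2, ND4, ND4L and ND5), 1 rose (ND3) and 2 did not pass the test (ND1 and ND6). That is to be read against the 12.9% of all tested genes that were lower and the 10.0% that were higher. All MUT libraries lay below all WT libraries for ND2, ND4, ND4L and ND5, which 25.3% of tested genes also did, and above them for ND3, which 25.4% of tested genes also did. The median log2 fold change was -0.40 over the 7 members, against 0.00 over all genes tested.

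**Figure D1:**
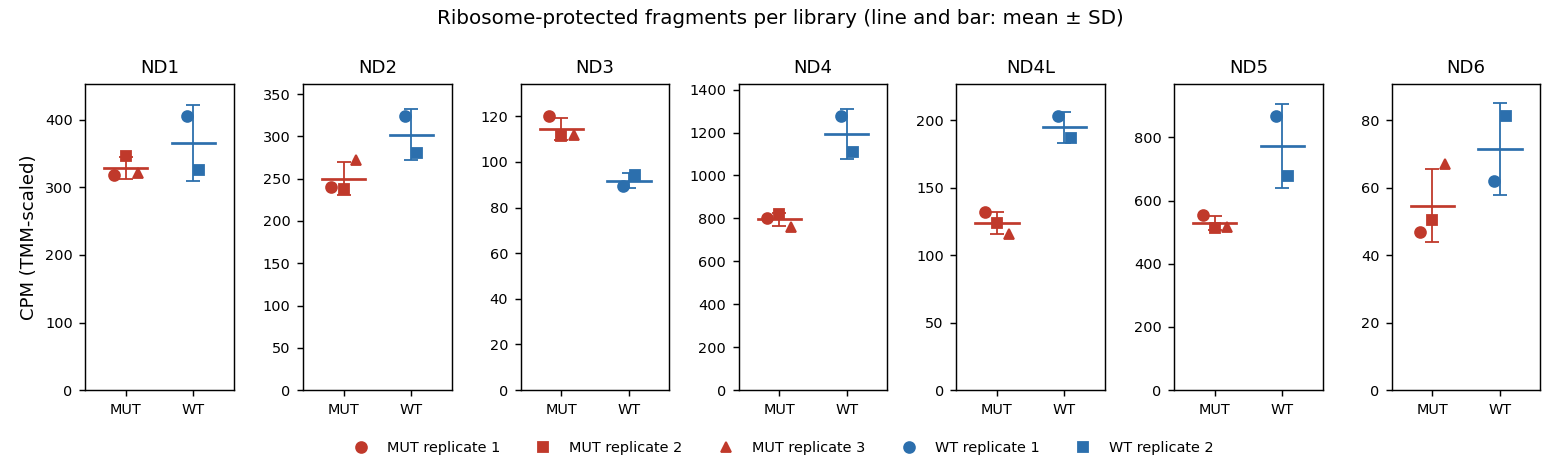
Level of each member in CPM (y axis, separate scale per gene starting at 0) in the 3 MUT libraries and the 2 WT libraries, with the mean and SD of each group. ND2, ND4, ND4L and ND5 sit lower in every MUT library, ND3 sits higher, and the ND1 and ND6 groups overlap.

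Among the antiporter-like subunits, ND4 had the largest footprint level and one of the clearest changes. It stood at 804, 822 and 760 CPM in MUT and at 1275 and 1109 CPM in WT. The lowest WT library was above the highest MUT library. The means were 795 ± 31.6 CPM in MUT and 1192 ± 117 CPM in WT, a log2 fold change of -0.58 (SE 0.0985, edgeR adjusted p 0.000193), or 1.5-fold lower. ND5, the most distal pump subunit of the membrane arm, had 554, 514 and 518 CPM in MUT and 866 and 679 CPM in WT. Its 2 WT libraries differed widely from each other, yet both exceeded every MUT library. The log2 fold change was -0.54 (SE 0.104, adjusted p 0.000632), or 1.46-fold lower. ND2, the antiporter-like subunit nearest to the matrix arm, had 240, 238 and 272 CPM in MUT and 324 and 281 CPM in WT. Its highest MUT library lay only just below its lowest WT library. The log2 fold change of ND2 was -0.27 (SE 0.0979, adjusted p 0.0494), at the edge of the threshold. The ND2 call was lost without WT replicate 1 (log2 fold change -0.17, adjusted p 0.306), without MUT replicate 1 (-0.24, 0.183) and without MUT replicate 2 (-0.23, 0.146).

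At the quinone-binding end, ND4L fell by the most of the 7 genes. It had 132, 124 and 116 CPM in MUT and 203 and 187 CPM in WT, with a wide gap between the groups. The means were 124 ± 8.11 CPM in MUT and 195 ± 11.4 CPM in WT, a log2 fold change of -0.65 (SE 0.0969, adjusted p 4.61e-05), or 1.57-fold lower. ND3, whose loop contributes to the quinone-binding region, went the other way. It had 120, 111 and 112 CPM in MUT and 89.4 and 94.2 CPM in WT, and all 3 MUT libraries were above both WT libraries. The log2 fold change was 0.31 (SE 0.105, adjusted p 0.0341), or 1.24-fold higher. The call of ND3 did not hold without WT replicate 1 (adjusted p 0.159), without WT replicate 2 (0.109) or without MUT replicate 1 (0.124), with log2 fold changes of 0.27, 0.36 and 0.28.

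ND1, which forms much of the quinone channel, had 318, 347 and 321 CPM in MUT and 405 and 326 CPM in WT. MUT replicate 2 was above WT replicate 2, so the groups overlapped. The log2 fold change was -0.15 (SE 0.101, adjusted p 0.306), and without WT replicate 1 it was 0.0049 (adjusted p 0.98). ND6, a subunit beside ND3 and ND4L in the membrane arm, had 46.8, 50.3 and 67.0 CPM in MUT and 61.9 and 81.1 CPM in WT. It had the fewest counts of the 7 and the widest relative spread in MUT, and MUT replicate 3 was above WT replicate 1. The log2 fold change was -0.40 (SE 0.149, adjusted p 0.0532). Without MUT replicate 3 it was -0.58 (adjusted p 0.00869), without WT replicate 1 -0.57 (0.0423), and without WT replicate 2 -0.17 (0.656).

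The members differed among themselves in how the 2 WT libraries compared. WT replicate 1 exceeded WT replicate 2 by 0.31 for ND1, 0.20 for ND2, 0.20 for ND4, 0.12 for ND4L and 0.35 for ND5 in log2 CPM. It was lower by 0.08 for ND3 and 0.39 for ND6. The standard error from counting alone was 0.137 for ND3, 0.0937 for ND4L and 0.159 for ND6. It was between 0.0378 (ND4) and 0.0751 (ND2) for the rest. The ND3 difference was thus within counting error, and that of ND4L was little above it. The 13 mitochondrial protein genes took 0.671%, 0.648% and 0.663% of counts in the MUT libraries, and 0.970% in the first WT library and 0.789% in the second. With WT replicate 1 left out, ND4, ND4L and ND5 remained lower, with ND6 the fourth, and no member was called higher, while 8.43% of all tested genes were lower and 5.22% higher in that fit.

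**Figure D2:**
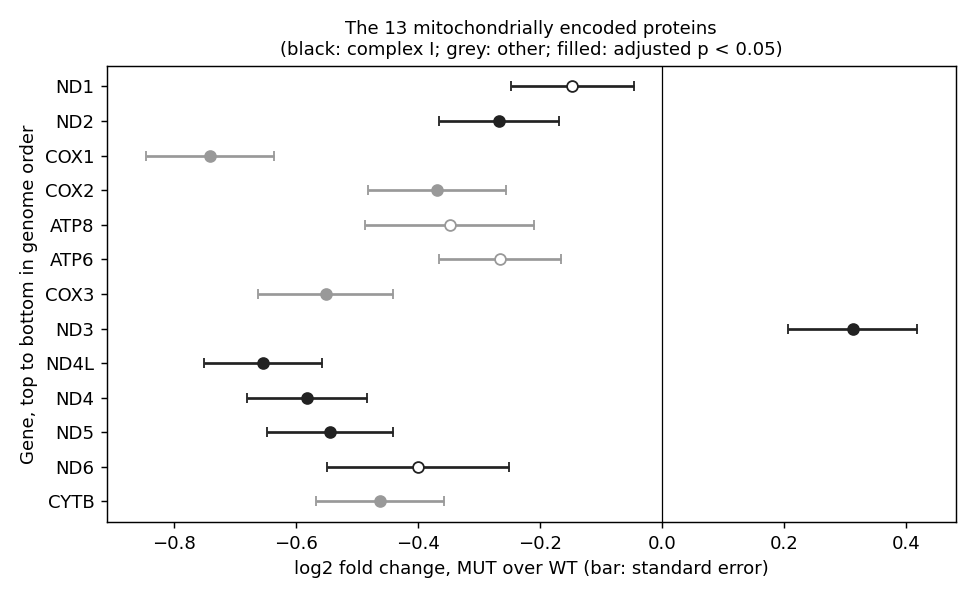
Log2 fold change of MUT over WT (x axis, with standard error) for the 13 mitochondrially encoded proteins, in genome order from top to bottom. ND3, at 0.31, is right of 0, and the other 12 genes are left of it, down to -0.74 for COX1.

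Set beside the other mitochondrially encoded proteins, ND3 was the one gene of the 13 with a positive fold change. The 6 others had log2 fold changes from -0.74 (COX1, adjusted p 2.72e-05) to -0.27 (ATP6, 0.0556), and 4 of the 6 fell: COX1, COX2 (-0.37, adjusted p 0.0204), COX3 (-0.55, 0.00103) and CYTB (-0.46, 0.00267), where 12.9% of all tested genes did. Without WT replicate 1, 2 of the 6 fell, where 8.43% of all tested genes did. COX1 to COX3 are subunits of cytochrome oxidase, CYTB of complex III and ATP6 and ATP8 of the ATP synthase. The 7 members made up 33.7%, 34.4% and 33.3% of the counts of the 13 genes in MUT and 31.8% and 34.2% in WT. The groups overlapped, with WT replicate 1 the lowest library and MUT replicate 2 the highest.

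Within that pool the parts taken by single members changed unequally. ND3 took 1.83%, 1.74% and 1.72% of the 13 genes' counts in MUT and 0.881% and 1.17% in WT. The exact (Clopper-Pearson) 95% intervals cover counting error only. They spanned 1.56% to 2.02% over the MUT libraries, and no MUT interval met a WT one. The 2 WT intervals (0.757% to 1.02% and 1.04% to 1.31%) did not meet each other either. Such a gap therefore does not by itself mark a group difference. The means were 1.76% ± 0.0570 in MUT and 1.02% ± 0.202 in WT. ND1 took 4.84%, 5.42% and 4.93% in MUT and 3.99% and 4.04% in WT, and ND2 took 3.66%, 3.71% and 4.19% in MUT and 3.19% and 3.48% in WT. For ND1, ND2 and ND3 all MUT libraries were above all WT libraries, as for 38.5% of the 13 genes (COX2 and ATP6 as well), while 7.69% of them (COX1) were below. With 3 against 2 libraries the smallest two-sided exact permutation p is 0.1, which all of these reached (0.217 after Benjamini-Hochberg adjustment over the 13 genes). These shares depend on one another: when COX1 takes less of the pool the others take more.

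**Figure D3:**
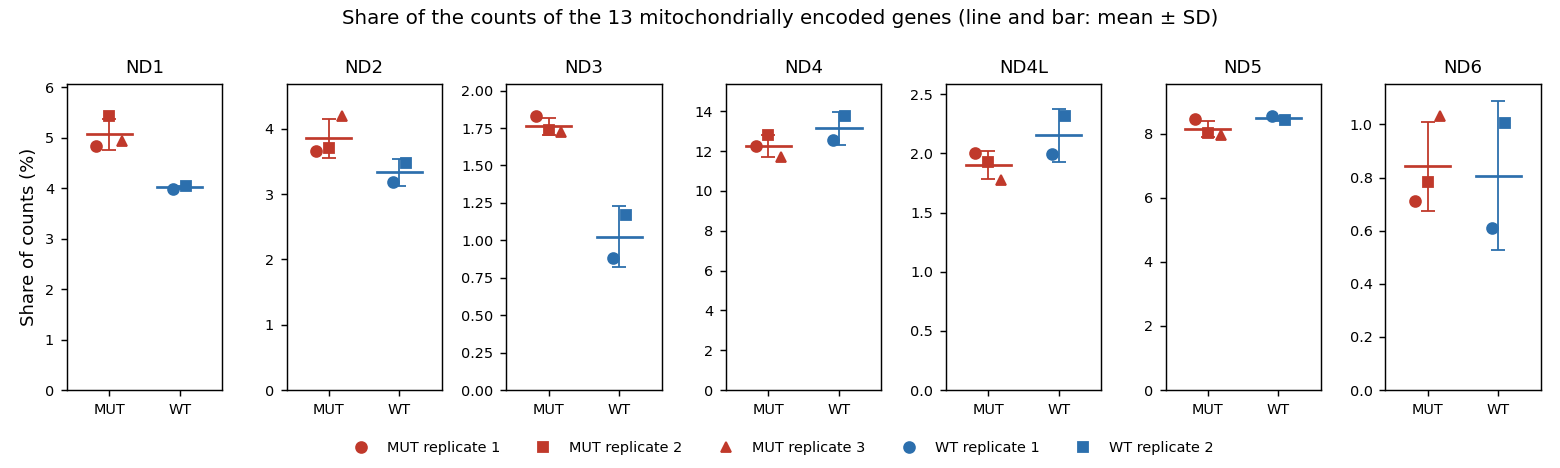
Share of the counts of the 13 mitochondrially encoded genes that each member took (y axis in percent, separate scale per gene starting at 0), per library with group mean and SD. The ND1, ND2 and ND3 shares are higher in all 3 MUT libraries than in both WT libraries, and the ND6 shares overlap.

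ND4 took 12.3%, 12.8% and 11.7% of the pool in MUT and 12.6% and 13.7% in WT. ND4L took 2.01%, 1.93% and 1.78% in MUT and 2.00% and 2.31% in WT, and ND5 took 8.44%, 8.02% and 7.96% in MUT and 8.53% and 8.41% in WT. ND6 took 0.712%, 0.785% and 1.03% in MUT and 0.610% and 1.01% in WT. The groups of these 4 genes overlapped (exact permutation p 0.3 for ND4, ND4L and ND5, and 0.9 for ND6). The overlap of ND4 and ND4L depended on the denominator. Of the 7 members' counts, ND4 took a mean of 36.2% in MUT and 39.9% in WT, and ND4L 5.63% and 6.53%. For both, all MUT libraries were then below all WT libraries. ND5 and ND6 still overlapped, and ND1, ND2 and ND3 stayed above. These shares were not tested.

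Ratios of neighbouring genes do not depend on library scaling. The ratio of ND4L counts to ND4 counts, the 2 reading frames on one mRNA, was 0.164, 0.150 and 0.152 in MUT and 0.159 and 0.168 in WT, and the groups overlapped (exact permutation p 0.3). The ratio of ND3 counts to ND4L counts was 0.911, 0.902 and 0.969 in MUT and 0.441 and 0.504 in WT. Each MUT library was well above both WT libraries, with means of 0.927 ± 0.0364 in MUT and 0.473 ± 0.0449 in WT. This ratio reached the smallest possible exact permutation p of 0.1 (0.3 after adjustment over 6 neighbour ratios). With any single library left out, a check not planned beforehand, the difference stayed between 0.423 and 0.486. The ratio sets the member that rose (ND3, log2 fold change 0.31) over the member that fell the most (ND4L, -0.65), on the same counts. It is therefore no separate support for either change. The ratio of ND3 counts to those of COX3, the gene before it, was 0.139, 0.137 and 0.124 in MUT and 0.0617 and 0.0873 in WT. The ratios of ND6 to ND5 (0.0844, 0.0979 and 0.129 in MUT, 0.0715 and 0.120 in WT) and of ND5 to ND4 (0.689, 0.626 and 0.681 in MUT, 0.680 and 0.612 in WT) overlapped between the groups. The ratio of ND1 to ND2 was 1.32, 1.46 and 1.18 in MUT and 1.252 and 1.161 in WT, and also overlapped.

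Per kilobase of gene span the members ranged over several-fold. In MUT the mean levels were 577 CPM per kilobase for ND4, 416 for ND4L, 344 for ND1, 331 for ND3, 292 for ND5, 239.9 for ND2 and 104 for ND6. In WT they were 865 for ND4, 656 for ND4L, 426 for ND5, 382 for ND1, 290.1 for ND2, 265 for ND3 and 136 for ND6. ND4 led and ND6 came last in both groups, and ND6 was also last of all 13 genes. ND3 stood at rank 4 of 7 in MUT and at rank 6 in WT. Neighbours in this order whose libraries overlapped were ND1 and ND3 in MUT, and ND5 and ND1, and ND2 and ND3, in WT. Per length, the libraries of ND4L and ND4 did not overlap in either group (416 ± 27.3 and 577 ± 22.9 in MUT, 656 ± 38.3 and 865 ± 84.9 in WT).

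**Figure D4:**
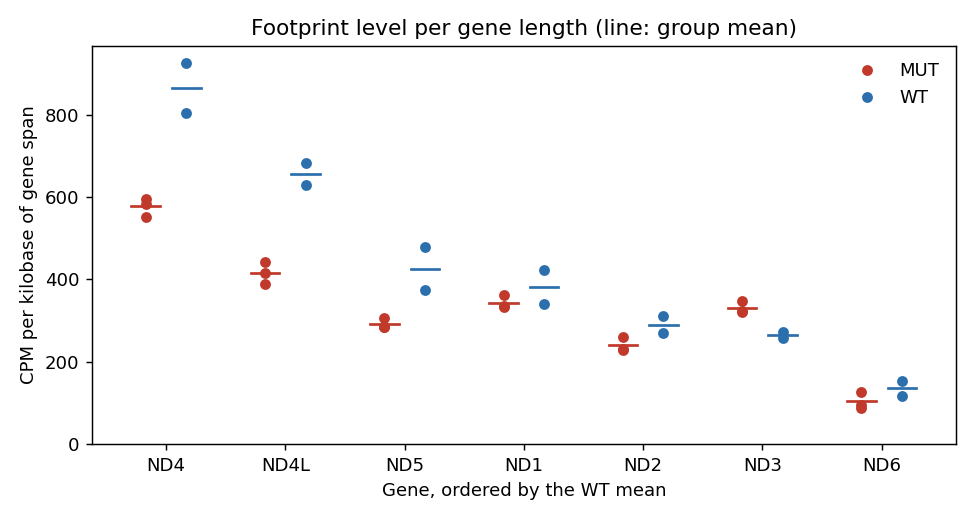
Level per kilobase of gene span (y axis, CPM per kilobase) of each member, in order of the WT mean, with points for libraries and lines for group means, MUT left of WT. ND4 is highest and ND6 lowest in both groups, and ND3 is the one gene with its MUT points above its WT points.

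The nuclear-encoded parts of complex I were read from lists of genes, with means ± SD over 3 MUT and 2 WT libraries and edgeR adjusted p-values throughout. Of 7 core subunits, 1 rose and 1 fell, which is near the 10.0% and 12.9% of all tested genes. NDUFS7, a subunit holding an iron-sulfur cluster near the quinone site, had 76.8 ± 2.19 CPM in MUT and 54.7 ± 3.96 in WT (log2 fold change 0.48, adjusted p 0.00676), and NDUFV2, of the NADH-oxidising module, had 125 ± 7.79 CPM in MUT and 164 ± 17.8 in WT (-0.40, 0.0056). NDUFS3 did not pass (-0.14, 0.332). Of 30 accessory subunits, 13 fell and none rose, against 12.9% lower and 10.0% higher among all tested genes, and the median log2 fold change was -0.27, against 0.00. NDUFB6 had 104 ± 17.2 CPM in MUT and 190 ± 3.28 in WT (-0.88, 7.8e-06), NDUFB3 99.5 ± 3.76 CPM in MUT and 145 ± 14.5 in WT (-0.55, 0.000437) and NDUFB1 50.7 ± 5.04 CPM in MUT and 80.5 ± 6.98 in WT (-0.66, 0.000748). These 3 are the accessory subunits of lowest p, and they belong to the membrane arm, as do the mitochondrially encoded members. The 13 that fell were not sorted by arm, and a link of the fall to the membrane arm was not tested. Without WT replicate 2, when 5.93% of all tested genes were lower, 6 accessory subunits and no core subunit fell. Without WT replicate 1 no core subunit rose.

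Of 18 assembly factors 4 fell and none rose, against 12.9% lower and 10.0% higher among all tested genes. Their median log2 fold change was -0.12, and it moved to -0.01 when WT replicate 2 was left out and to -0.20 when WT replicate 1 was. TMEM70 was at 120 ± 7.73 CPM in MUT and 162 ± 3.87 in WT (-0.43, adjusted p 0.00255), COA1 at 113 ± 7.68 CPM in MUT and 144 ± 6.98 in WT (-0.35, 0.0142), and NDUFAF4 at 109 ± 4.16 CPM in MUT and 138 ± 7.1 in WT (-0.34, 0.0142). The number that fell was 0 when WT replicate 2 was left out, 1 when MUT replicate 2 was, and 2 when either WT replicate 1 or MUT replicate 1 was. Assembly factors called higher numbered 2 under upper-quartile scaling, 3 under library size only and 1 when MUT replicate 3 was left out. Of 12 genes for transcription and copy number of mitochondrial DNA, 3 fell and none rose, again beside 12.9% and 10.0% of all tested genes. They were TFAM, the packaging and transcription factor, at 130 ± 5.81 CPM in MUT and 174 ± 10.98 in WT (-0.41, 0.00363), SSBP1, the single-strand binding protein, at 165 ± 17.5 CPM in MUT and 221 ± 9.64 in WT (-0.43, 0.0031), and MGME1, an exonuclease, at 115 ± 2.45 CPM in MUT and 147 ± 9.23 in WT (-0.35, 0.0118). The median of that list was -0.11, and leaving out WT replicate 2 gave -0.0031, WT replicate 1 -0.21, MUT replicate 2 -0.23 and MUT replicate 3 -0.07. In that list 1 gene was called higher under upper-quartile scaling and 2 under library size only.

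Of the 19 tested genes for mitochondrial RNA processing and stability, 2 rose and 1 fell, close to or below the 10.0% higher and 12.9% lower among all tested genes. Their median of -0.01 changed sign with upper-quartile scaling (0.03), library size only (0.06) and without WT replicate 2 (0.07). ELAC2, which cuts the 3′ ends of mitochondrial tRNAs, was at 130 ± 10.3 CPM in MUT and 102 ± 4.06 in WT (0.35, adjusted p 0.0183), and PTCD1 at 31.0 ± 5.31 CPM in MUT and 20.5 ± 0.671 in WT (0.60, 0.0276). TRMT10C, a part of the enzyme that cuts their 5′ ends, was at 121 ± 19.2 CPM in MUT and 163 ± 5.38 in WT (-0.43, 0.00685). No gene of that list was called higher when WT replicate 1, WT replicate 2 or MUT replicate 2 was left out, and none lower when WT replicate 2 was. Of 16 mitochondrial translation factors 4 fell and none rose, against 12.9% lower and 10.0% higher among all tested genes, at a median of -0.18. MTRF1, a release factor, was at 35.1 ± 0.467 CPM in MUT and 53.2 ± 4.53 in WT (-0.59, 0.00423), MTFMT, which formylates the initiator tRNA, at 44.2 ± 4.1 CPM in MUT and 63.1 ± 0.46 in WT (-0.51, 0.00781), and MTRES1 at 22.3 ± 0.614 CPM in MUT and 34.8 ± 8.19 in WT (-0.67, 0.00893). Without WT replicate 2, when 5.93% of all tested genes were lower, the count that fell was 1.

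Likeness of profile was measured as the root mean square difference of log2 CPM, each gene taken as deviations from its mean over the 5 libraries, among 5867 other genes with a mean of at least 50 CPM. For the summed counts of the 7 members the nearest were RPIA (0.0234), IER3IP1 (0.0295), CRABP2 (0.0297), SPTSSA (0.0306) and KDELR1 (0.0325), against a median of 0.226 over all those genes. For ND3 the nearest were SPOUT1 (0.0115), HSPA12A (0.0186), GADD45GIP1 (0.0196), RAB1B (0.0223) and MLLT1 (0.0227), against a median of 0.225. With 5 libraries these distances only describe the samples at hand. The named genes were picked as the nearest, so their place under the median was given in advance. Their order may also owe much to counting error, which for ND3 was 0.137 in log2 CPM between the 2 WT libraries.

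**Figure D5:**
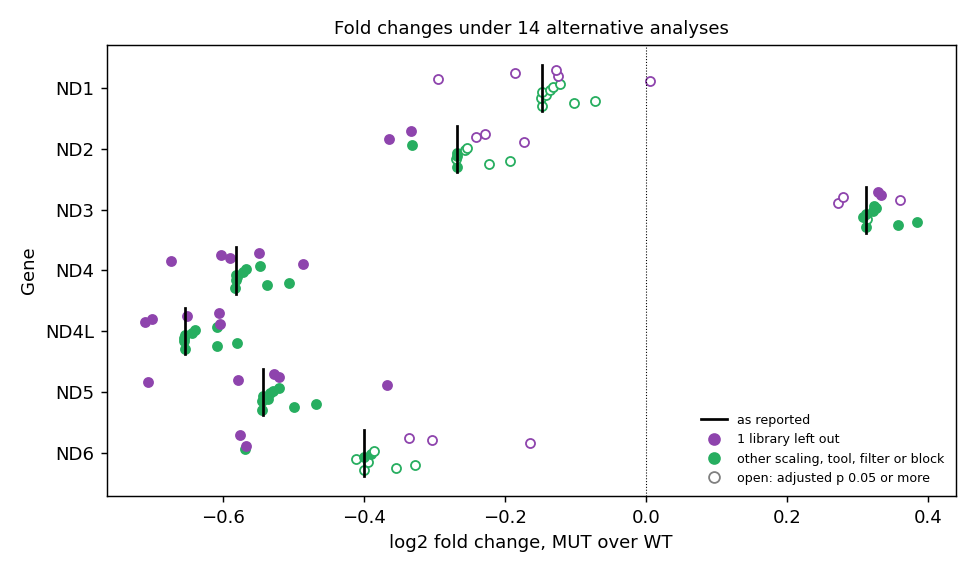
Log2 fold change of MUT over WT (x axis) for each member as reported (black line) and under 14 alternative analyses (points, filled where the adjusted p was under 0.05). ND4, ND4L and ND5 stay filled at all 14 and left of 0, whereas ND1 has a point right of 0.

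ND4, ND4L and ND5 were called lower under each of the 14 alternative analyses, which change the scaling, the tool, the filter, the block or the libraries. Their log2 fold changes ranged from -0.67 to -0.49, from -0.71 to -0.58 and from -0.71 to -0.37. ND3 was positive in all 14 and called in 10 (log2 fold change 0.27 to 0.38). ND2 was negative in all 14 and called in 6, and ND6 was negative in all 14 and called in 5.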

How the data were processed

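The authors deposited 1 table of counts of ribosome-protected fragments per gene for 5 libraries. Per the submitters' processing notes, FastQC 0.12.1, cutadapt 4.6, STAR 2.5.2b, DESeq2 1.42.0 and the hg38 build were used. The counting program, annotation, strand setting and treatment of fragments with several matches were not given in the sources used here. Per the labels' protocols, cells were lysed at 60 to 70% density, digested with MNase, run on a sucrose gradient, and gel-selected for fragments 25 to 35 nucleotides long, which were depleted of rRNA before library construction. No molecular identifiers are mentioned, so copies of 1 fragment may be counted as several. The intervals cover counting error only and may be too narrow even for that.

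From these counts, edgeR 4.0.16 (R 4.3.3) was run with filterByExpr (minimum count 10, minimum total 15) and TMM scaling. The quasi-likelihood F test of MUT over WT had 3 residual degrees of freedom per gene. It draws each gene's spread towards that of the other genes, so its p-values do not rest on the gene's own libraries alone. The SE of a log2 fold change was derived from this test, as its absolute value over the square root of F. Benjamini-Hochberg adjustment ran over the 11991 genes tested, at a threshold of 0.05. CPM are on the TMM-scaled library size. Shares and ratios were computed on raw counts and compared by exact two-sided permutation over the 10 possible assignments. Gene spans and coordinates came from RefSeq, where 17262 gene names matched and 35 did not. All 5 value columns were matched to samples. The fit was tested on simulated data. Those data were drawn with the spread that edgeR estimated here, so they do not test that estimate. The pathway lists and the members were chosen with earlier results of these data known, so no list is independent support. Named genes are the 7 members, the other mitochondrially encoded genes, up to 3 genes of lowest p per list, EIF6, and the 5 of nearest profile. Alternatives were other scalings (RLE, upper-quartile, none), DESeq2 1.42.0, limma-voom (limma 3.58.1), a robust fit, other count filters, a replicate block and leaving out each library.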

Additional observations from a re-analysis of the deposited data

How the results depend on the processing

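The directions and calls of ND4, ND4L and ND5 held under all 14 alternatives. ND2 lost its call with upper-quartile scaling (log2 fold change -0.22), library size only (-0.19), DESeq2 (-0.27), no filter on low counts (-0.26) and the strict filter (-0.25), and ranged from -0.36 to -0.17 with 1 library left out. ND3 lost its call with DESeq2 (0.31, adjusted p 0.12) and ranged from 0.27 to 0.36 with 1 library left out. ND6 gained a call with the robust fit (-0.40), no filter (-0.39) and the replicate block (-0.57), and ranged from -0.58 to -0.17 with 1 library left out, and ND1 from -0.29 to 0.00 (0.0049). The replicate numbers pair the libraries only by name. Correlations of deviations were 0.0881 for number 1, 0.199 for number 2 and 0.107 for WT replicate 1 with MUT replicate 3. The deviations of the 2 WT libraries mirror each other, so these values are not independent. MUT replicate 3 has no WT library of its number, so the block leaves the genotype contrast to replicates 1 and 2 of each group. The block is therefore not separate from leaving out MUT replicate 3. With the replicate block 5 members were called lower, beside 15.9% of all genes lower and 12.8% higher. Under that block 1 gene each of the assembly and transcription lists was called higher. Over all genes, DESeq2 called 609 higher and 948 lower, and leaving out 1 library gave 509 to 1089 higher and 732 to 1339 lower. With upper-quartile scaling 13% of genes were higher and 10.1% lower, and with library size only 14.6% and 8.67%. DESeq2 called 0 members higher, and leaving out 1 library gave 0 to 1. The difference in the share of all counts ranged from -0.0847 to -0.0462 points. The difference in ND6's share of the mitochondrial pool changed sign without WT replicate 1 (-0.162) and without MUT replicate 3 (-0.0587), over a range from -0.162 to 0.232 with 1 library left out. Where WT held 1 library, that library was assumed to vary like the MUT libraries. The alternative taking 3 times the protein length as coding length was not run. The cause of these changes was not tested. ND6, with 124 to 261 counts per library, has the largest counting error of the members.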
